A study of Homo sapiens with 6 samples.

Results

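The 10 genes described here are the beta-tubulin genes TUBB, TUBB2A, TUBB2B, TUBB3, TUBB4A, TUBB4B and TUBB6 and the alpha-tubulin genes TUBA1A, TUBA1B and TUBA1C, out of 19775 genes with a probe set of their own on the array. They were read by every probe set whose platform annotation names one of them, 21 of the 54675 on the array, and 20 of the 21 were bright enough to be tested. The cells were HEK293, an established line derived from human embryonic kidney. They were transfected for 72 h with an Ambion siRNA against BAHD1, a heterochromatin protein known for gene silencing (3 arrays), or with an Ambion control siRNA (3 arrays), both by Lipofectamine RNAiMAX. Both groups thus went through the same transfection, and the labels call the 3 samples of each biological replicates. BAHD1 itself read 36.6, 46.8 and 41.2 in the BAHD1 siRNA arrays and 62.9, 55.7 and 46.7 in the control arrays. Its highest BAHD1 siRNA value lay just above its lowest control value, and the log2 fold change of -0.40 (SE 0.19) did not pass an adjusted p of 0.05 (limma, adjusted p = 0.251). The comparison asks which tubulin transcripts differ when BAHD1 is targeted. The genes were chosen with results of this same comparison known, in which TUBB4A was among the larger differences. Their fold changes and adjusted p-values are therefore a description of these 6 arrays, and nothing is inferred from how many passed.

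Microtubules are hollow polymers of heterodimers, each of 1 alpha-tubulin and 1 beta-tubulin. Human cells encode both in families of closely related genes, the isotypes, whose proteins differ mainly in the acidic tail at the carboxyl end. TUBA1B, TUBA1C, TUBB and TUBB4B are expressed widely, whereas TUBA1A, TUBB2A, TUBB2B, TUBB3 and TUBB4A are known best from the nervous system. The level of tubulin mRNA is tied to the pool of free heterodimers, which, when large, triggers the decay of tubulin mRNAs as they are translated.

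Of the 20 tested probe sets, 15 carry the suffix _x_at and 1 the suffix _s_at, which the array's maker gives to probe sets that can match several transcripts. Tubulin isotypes are close in sequence, so these probe sets may read several isotypes at once. The 4 without such a suffix belong to TUBB, TUBB2A, TUBB4A and TUBB6. Values below are signals on the authors' linear scale unless log2 is named, and log2 values are log2(signal + 1). Each is an average over a culture, in which fewer cells with a transcript and less of it per cell cannot be told apart.

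The gene starts of TUBB2B and TUBB4A are shown because their probe sets passed the threshold, and that of TUBB2A, which did not pass, because it lies next to TUBB2B on chromosome 6, with no protein-coding gene between them in the RefSeq table. The sequences are the 250 bases before a RefSeq transcript start (build GRCh38.p14), 5′ to 3′ on the strand of the gene, with matches on either strand to the TATA box TATAAA, to the motif CCAAT and to the motif ACGTCA (the half-site of the cyclic AMP response element) in capitals. TUBB4A has 2 starts in the table, and the outer one comes first.
TUBB2A, chr6:3157545-3157794, minus strand: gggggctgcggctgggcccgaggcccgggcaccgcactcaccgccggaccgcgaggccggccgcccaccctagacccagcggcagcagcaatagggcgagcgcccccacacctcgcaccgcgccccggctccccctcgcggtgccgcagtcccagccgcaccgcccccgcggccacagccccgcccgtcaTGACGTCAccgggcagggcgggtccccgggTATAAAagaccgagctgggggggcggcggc
TUBB2B, chr6:3227654-3227903, minus strand: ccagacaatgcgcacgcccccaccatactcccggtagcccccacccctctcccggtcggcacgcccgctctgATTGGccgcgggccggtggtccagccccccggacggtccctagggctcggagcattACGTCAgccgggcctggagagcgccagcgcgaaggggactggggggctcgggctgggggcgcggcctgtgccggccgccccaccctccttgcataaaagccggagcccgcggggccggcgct
TUBB4A outer start, chr19:6502849-6503098, minus strand: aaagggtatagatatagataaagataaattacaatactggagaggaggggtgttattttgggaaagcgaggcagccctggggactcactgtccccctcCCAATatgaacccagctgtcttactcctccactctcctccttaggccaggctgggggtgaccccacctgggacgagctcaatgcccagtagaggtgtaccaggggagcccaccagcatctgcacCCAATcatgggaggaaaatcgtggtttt
TUBB4A inner start, chr19:6502310-6502559, minus strand: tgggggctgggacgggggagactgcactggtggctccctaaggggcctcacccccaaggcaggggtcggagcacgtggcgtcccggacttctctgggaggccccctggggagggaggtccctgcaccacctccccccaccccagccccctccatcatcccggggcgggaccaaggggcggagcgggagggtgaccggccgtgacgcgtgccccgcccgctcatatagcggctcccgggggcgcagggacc

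All 10 genes had a window in the RefSeq table, 16 windows in all. ACGTCA or its complement TGACGT was found in 2 of the 16, those of TUBB2A and TUBB2B, against 7.1% of the 35116 windows of all genes. In TUBB2A it is part of the full palindrome TGACGTCA, found in 1.65% of all windows, which begins 60 bases before the start. The half-site of TUBB2B begins 122 bases before its start. TUBB2A also had the 1 match to TATAAA among the members, beginning 30 bases before the start (10.7% of all windows hold it). CCAAT or ATTGG was found in 10 of the 16 windows (32.0% of all windows) and GGGCGG or CCGCCC in 9 (42.6%). The first 2 TUBA1C windows overlap and hold the same CCAAT, so that site was counted in both. By gene, each of these 2 motifs was found in 8 of the 10. The inner TUBB4A window held 18 CG dinucleotides and the outer one 3, against a median of 11 over all windows. Those of TUBB2A and TUBB2B held 33 and 28. These matches are letters in a window, and no binding was measured.

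The comparison was fitted with limma, with a prior variance that follows the signal, and the threshold was an adjusted p of 0.05 over all tested probe sets. Of the 20 tubulin probe sets 2 passed it, those of TUBB2B and TUBB4A, both higher in BAHD1 siRNA cells, against 4.45% of the 27458 tested on the array (2.17% higher and 2.28% lower). The groups did not overlap in 5 of the 20, 4 of them higher, against 25.6% over the array. Of the 20, 13 had a log2 fold change below 0, against 48.0% over the array. The 13 include all 10 tested probe sets of TUBA1B, TUBA1C and TUBB, which may share sequence and are not separate results. After quantile normalisation 11 of the 20 were below 0, against 51.1% over the array. As deposited, the median log2 fold change was -0.09 over the 20 and 0.01 over all tested probe sets. In a fit with 1 variance prior for all probe sets, limma called none of the 27458, and the lowest adjusted p among the tubulins was 0.173. At an unadjusted p under 0.05 that fit had 3 of the 20, against 17.6% of all, and the fit with the signal-dependent prior had 6, against 20.9% of all.

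TUBB2B, an isotype of the developing brain, stood at 135% of the control level in BAHD1 siRNA cells by the fit, and its probe set had the smallest p among the members. That probe set carries the suffix _x_at, so it may also read other isotypes. Its signals were 1062.5, 1116.2 and 1210.2 in the BAHD1 siRNA arrays and 720.1, 898.9 and 893.8 in the control arrays. All 3 BAHD1 siRNA values lay above all 3 control values. The mean log2 signal was 10.14 ± 0.09 in BAHD1 siRNA cells and 9.70 ± 0.18 in control cells (SD, n = 3 each). The fit gave a log2 fold change of 0.44 (SE 0.09), past the threshold (adjusted p = 0.0202). The threshold was no longer met with array medians set equal (0.30, adjusted p = 0.103), with 1 variance prior (adjusted p = 0.184), or without BAHD1 siRNA replicate 2, BAHD1 siRNA replicate 3 or control replicate 1 (adjusted p = 0.0674, 0.0848 and 0.062).

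TUBB2A, the neighbouring and near-identical isotype, was read by 1 probe set of its own. It gave 1102.5, 1061.6 and 1068.9 in the BAHD1 siRNA arrays and 897.3, 1010.1 and 884.1 in the control arrays. The groups again did not overlap, although control replicate 2 came close to the lowest BAHD1 siRNA value. TUBB2A had a log2 fold change of 0.21 (SE 0.07), which did not pass the threshold (adjusted p = 0.101). A further probe set is annotated to TUBB2A and TUBB2B together, and what it reads cannot be split between the pair. It read 357.1, 354.2 and 329.9 in the BAHD1 siRNA arrays and 295.3, 276.7 and 292.4 in the control arrays, also without overlap. Here the log2 fold change was 0.27 (SE 0.08, adjusted p = 0.0801). With a stricter filter, a signal above 99.9 in at least 3 arrays, this probe set passed (adjusted p = 0.047) and TUBB4A was not tested, so the 2 calls there were this one and TUBB2B.

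TUBB4A, a beta isotype of brain and myelinating cells, was dim in both groups. Its single probe set read 31.4, 41.4 and 47.9 in the BAHD1 siRNA arrays and 9.9, 11.8 and 25.9 in the control arrays. The groups did not overlap, but control replicate 3 lay nearer to the lowest BAHD1 siRNA value than to the other controls. The mean log2 signal was 5.35 ± 0.30 in BAHD1 siRNA cells and 3.96 ± 0.70 in control cells (SD, n = 3 each). The log2 fold change was 1.39, with a 95% interval of 0.61 to 2.16 (adjusted p = 0.0462). Adding 16 in place of 1 before the logarithm, which shrinks differences between dim signals, gave 0.84. A probe set was tested when its signal exceeded 17.9 in at least 3 arrays. TUBB4A exceeded it in the 3 BAHD1 siRNA arrays, which alone meet this rule, and in control replicate 3. Leaving out control replicate 3 gave 1.78, and TUBB4A passed the threshold in 1 of the 6 fits that left out an array, that one. The controls left in that fit, 9.9 and 11.8, lay below 17.9, so only the BAHD1 siRNA arrays exceeded the filter there. TUBB4A also lost the threshold after quantile normalisation (adjusted p = 0.0576), with no filter on dim probe sets (adjusted p = 0.0925) and with 1 variance prior (adjusted p = 0.173).

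TUBB, the widely expressed beta isotype of dividing cells, was lower on each of its 3 probe sets, without passing the threshold on any. The probe set without a suffix read 1953.6, 1957.9 and 1849.0 in the BAHD1 siRNA arrays and 2236.0, 2195.8 and 2070.4 in the control arrays. All BAHD1 siRNA values of that probe set lay below all control values. It had a log2 fold change of -0.17 (SE 0.06, adjusted p = 0.144). The other 2 TUBB probe sets had -0.20 and -0.14 (adjusted p = 0.156 and 0.312), and in both the groups overlapped. The 3 probe sets followed each other across the 6 arrays, with pairwise r of 0.903 to 0.96, which includes the difference between the groups and any shared sequence.

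TUBA1B and TUBA1C, the main alpha isotypes outside the nervous system, had mean log2 signals above 12 on all 7 of their tested probe sets. The TUBA1B probe set with the smallest spread between replicates read 6308.9, 6330.5 and 6072.6 in the BAHD1 siRNA arrays and 7174.5, 7393.4 and 6222.9 in the control arrays. Control replicates 1 and 2 were above every BAHD1 siRNA array, and control replicate 3 lay among them. Averaged over its 5 tested probe sets, TUBA1B had a log2 fold change of -0.16, with single probe sets from -0.19 to -0.11. TUBA1C had -0.14 over 2 probe sets, which read 4563.0, 4335.5 and 4340.8 in the BAHD1 siRNA arrays against 5298.1, 5459.2 and 4256.9 in control arrays, and 4745.9, 4784.3 and 4537.0 against 5569.6, 5238.1 and 4415.2. None of the 7 passed the threshold (adjusted p from 0.253 to 0.585). In all 10 tested probe sets of TUBA1B, TUBA1C and TUBB, control replicate 3 was the lowest control. Without it, 7 of the 10 passed the threshold as lower, against 558 of the 27458 over the array. The TUBA1B probe sets then ran from -0.32 to -0.22. Leaving out the lowest control had to raise the control mean, so larger falls there were fixed in advance. In the fits that left out any other array, none of the 10 passed as lower. All that passed carry the suffix _x_at and may share sequence, so they are not separate results. Over the 6 arrays the 7 TUBA1B and TUBA1C probe sets had pairwise r of 0.901 to 0.987.

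TUBA1A, the alpha isotype of developing neurons, lies between TUBA1B and TUBA1C on chromosome 12, and its log2 fold change was above 0 as deposited but at -0.05 with array medians set equal. Its signals were 2575.1, 2662.7 and 2868.3 in the BAHD1 siRNA arrays and 2590.3, 2485.2 and 2561.0 in the control arrays, and the groups overlapped. The log2 fold change was 0.08, with a 95% interval of -0.06 to 0.23 (adjusted p = 0.497). Relative to the TUBA1B probe set given above, its log2 ratio within an array was -1.29, -1.25 and -1.08 in BAHD1 siRNA cells and -1.47, -1.57 and -1.28 in control cells, and these ranges overlapped.

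**Figure D1:**
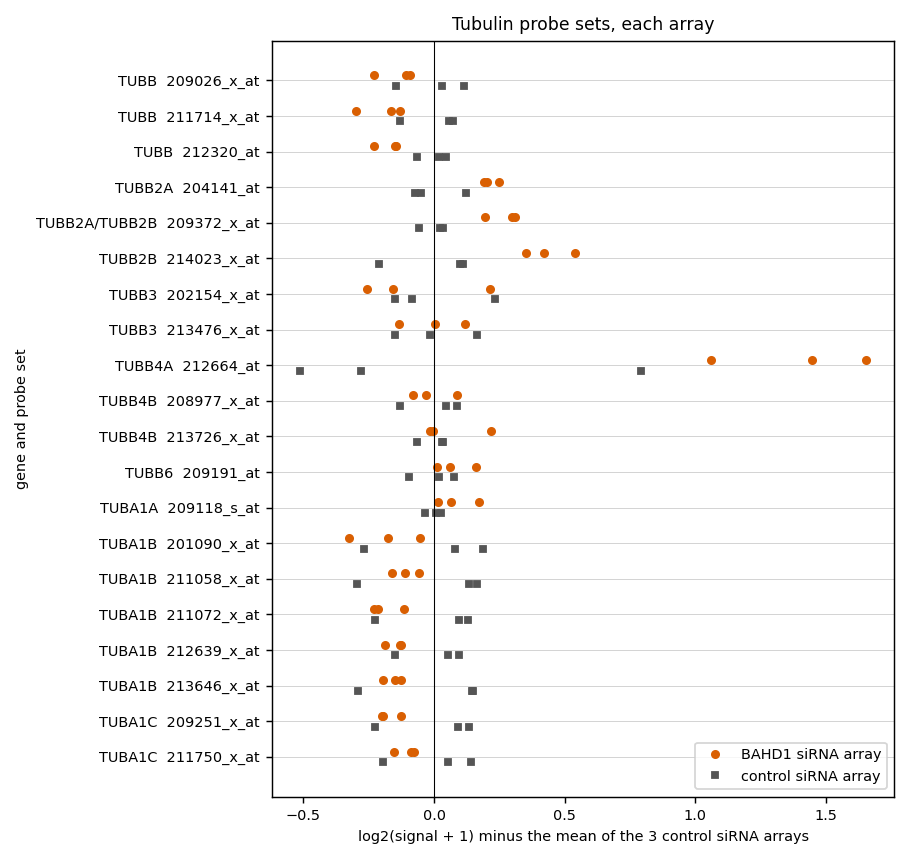
Each row is 1 tested tubulin probe set, and each point is 1 array, plotted as log2(signal + 1) minus the mean of the 3 control siRNA arrays (circles, 3 BAHD1 siRNA arrays; squares, 3 control siRNA arrays). The circles of TUBB2A, TUBB2B and TUBB4A lie to the right of all squares, those of 1 TUBB probe set to the left, and in TUBA1B and TUBA1C 1 control array lies on the side of the circles.

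The remaining beta isotypes differed by less than their spread. TUBB3, the isotype used as a marker of neurons, read 579.3, 802.4 and 621.6 in the BAHD1 siRNA arrays and 652.5, 814.3 and 624.7 in the control arrays on its first probe set. Its second read 1307.6, 1413.6 and 1186.4 in the BAHD1 siRNA arrays and 1458.6, 1288.9 and 1175.6 in the control arrays. The log2 fold changes of the pair were -0.07 (95% interval -0.33 to 0.20) and 0.00 (95% interval -0.19 to 0.18). Both carry the suffix _x_at, and over the 6 arrays they followed each other only loosely, with an r of 0.371. TUBB4B, a widely expressed isotype that is also found in cilia, had -0.01 (-0.17 to 0.16) and 0.07 (-0.10 to 0.23) on its 2 probe sets, with signals of 1543.2 to 1923.5 in BAHD1 siRNA cells and 1490.5 to 1733.5 in control cells. The r between these 2 probe sets was 0.757. TUBB6, a more divergent beta isotype, had 0.08 (-0.09 to 0.25), with 447.0, 479.6 and 432.1 in the BAHD1 siRNA arrays and 434.7, 401.0 and 451.8 in the control arrays.

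**Figure D2:**
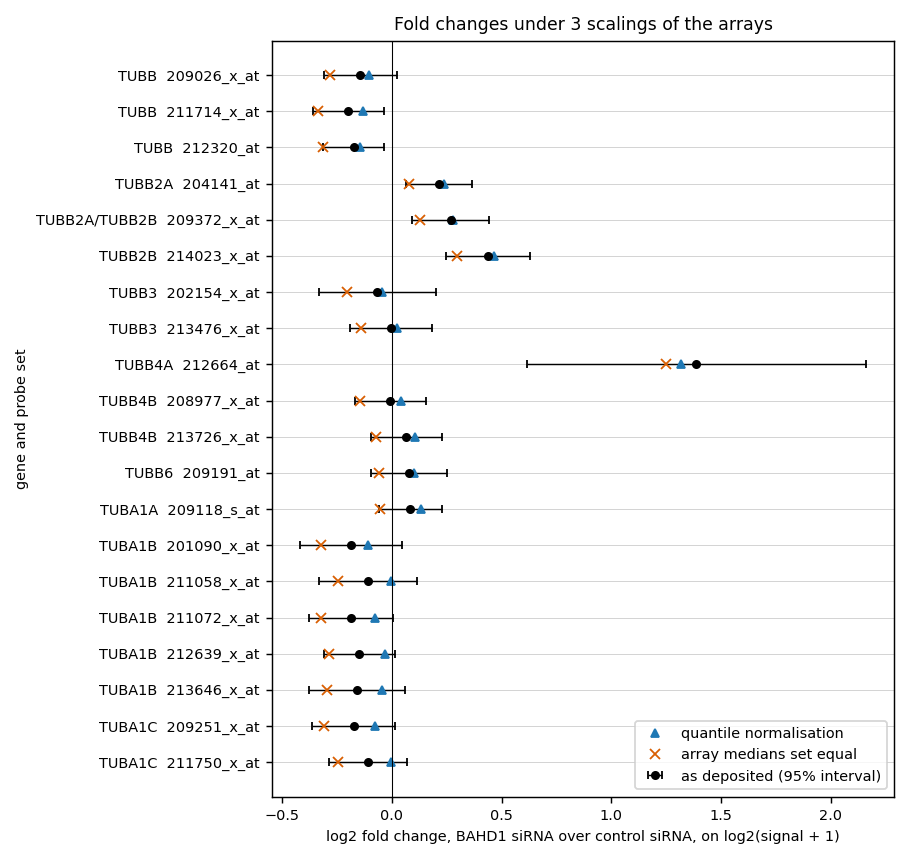
Log2 fold change of BAHD1 siRNA over control siRNA on log2(signal + 1) for the 20 tested probe sets, as deposited (black, with 95% intervals), after quantile normalisation (triangles) and with array medians set equal (crosses). TUBB2A, TUBB2B and TUBB4A stay above 0 and TUBB below 0 in all 3, whereas TUBA1A, TUBB6 and 1 TUBB4B probe set lie above 0 as deposited and below it with array medians set equal.

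Signals as bright as those of TUBA1B, TUBA1C and TUBB were mostly lower in BAHD1 siRNA cells. Of the 1625 tested probe sets with a mean log2 signal of at least 10, 66.3% were lower in BAHD1 siRNA cells, with a median log2 fold change of -0.06. Of the 668 with at least 11, 75.3% were lower, with a median of -0.08. The TUBB probe set without a suffix, at 10.91 in BAHD1 siRNA cells and 11.08 in control cells, is in the first of these sets only. At a mean log2 signal of at least 12, where the TUBA1B and TUBA1C probe sets lie, 91.2% of 285 were lower, with a median of -0.11. After quantile normalisation, which gives all arrays one distribution of signals, these medians were -0.0043, -0.0027 and -0.0021. TUBA1B then ran from -0.11 to -0.0028 and TUBA1C from -0.08 to -0.0056. TUBB ran from -0.14 to -0.10 in that version, TUBB2A had 0.24, TUBB2B 0.46 and TUBA1A 0.13. Setting the array medians equal moved the median of all tested probe sets to -0.13, and the tubulin median to -0.22. There TUBB2A and TUBB2B had 0.08 and 0.30, TUBA1A -0.05 and TUBB6 -0.06. Both TUBB4B probe sets (-0.15 and -0.07) and both TUBB3 probe sets (-0.20 and -0.14) were also below 0 in that version. The part of brightness in the lower TUBA1B, TUBA1C and TUBB signals was otherwise not tested.

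**Figure D3:**
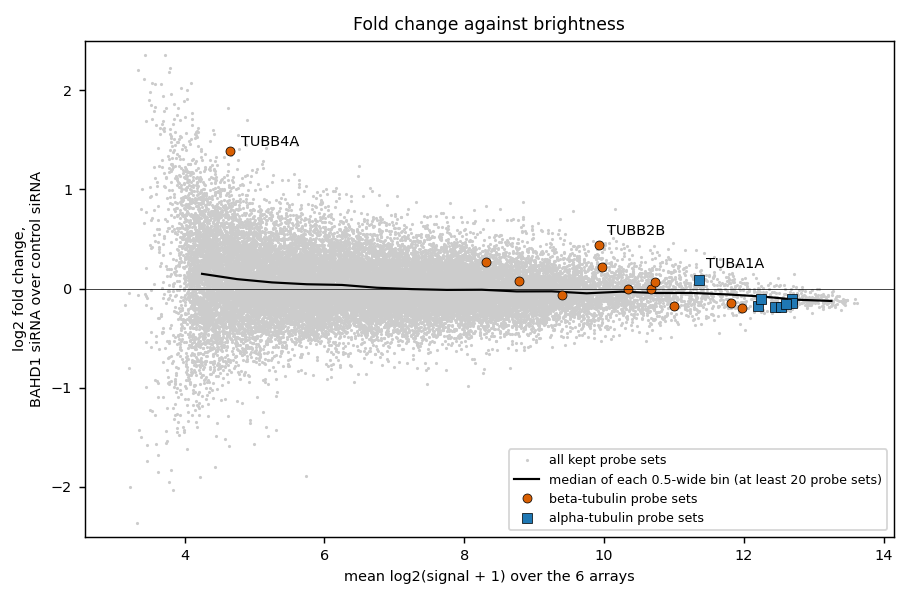
Log2 fold change of BAHD1 siRNA over control siRNA against mean log2(signal + 1) over the 6 arrays, for all 27458 tested probe sets (grey), beta-tubulin (circles) and alpha-tubulin (squares) probe sets, with the median of bins 0.5 wide as a line. The line falls below 0 at the bright end, where the TUBA1B and TUBA1C squares sit, while TUBB2B, TUBB4A and TUBA1A lie above it.

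Ratios of 2 tubulin probe sets within an array do not change when an array is multiplied by 1 factor, though quantile normalisation can change them. The log2 ratio of TUBB2B to the TUBB probe set without a suffix was -0.88, -0.81 and -0.61 in the BAHD1 siRNA arrays and -1.63, -1.29 and -1.21 in the control arrays. These ranges did not overlap, and the means differed by 0.61. That separation was fixed in advance, because TUBB2B was higher and TUBB lower in every BAHD1 siRNA array than in any control array. For TUBB2A over TUBB the ratios were -0.82, -0.88 and -0.79 in BAHD1 siRNA cells and -1.32, -1.12 and -1.23 in control cells, a difference of 0.39. These ranges had to separate for the same reason. The ratio of TUBB2B to TUBB2A overlapped between the groups, with means of 0.07 in BAHD1 siRNA cells and -0.16 in control cells. These pairs were chosen after their values were seen. Their ratios restate the differences given above and do not show which of each pair changed.

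The neighbours of the tubulin genes were read in the same fit, a choice also made after the tubulin values were seen. Of the 3 nearest measured protein-coding genes on each side of TUBB2A and TUBB2B, namely BPHL, NQO2, SERPINB1, PSMG4, SLC22A23 and PXDC1, none passed the threshold. SERPINB1, a protease inhibitor gene, had 0.36 with an SE of 0.10 (adjusted p = 0.0557), and the other 5 ran from -0.18 to 0.24. Around TUBB4A, the genes DENND1C, SLC25A23, KHSRP, TNFSF9, CD70 and C3 ran from -0.06 to 0.62, and none passed. None of the 6 around the alpha-tubulin genes on chromosome 12 passed either, and they ran from -0.12 to 0.33. Over the array, 5.52% of 12529 genes passed when each was read by its brightest tested probe set.

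Over the 6 arrays, the genes whose log2 signal followed that of TUBB2B most closely were DNAJB14, BAMBI, RCN2, BTG1 and LATS1, with Pearson r of 0.997, 0.996, 0.996, 0.992 and 0.992. Of these, BTG1, an antiproliferative gene, rose by 0.48 with an SE of 0.08 and LATS1, a Hippo pathway kinase gene, by 0.76 with an SE of 0.17 (adjusted p = 0.0114 and 0.0282). The other 3 did not pass the threshold, which 4.45% of all tested probe sets passed. Likeness to TUBB2B, whose groups did not overlap, favours genes that differ between the groups, so these passes are no separate result. Of 23527 probe sets compared, 894 reached an r of at least 0.9 with TUBB2B, and the shared difference between the 2 groups enters every such r.

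Genes that work with tubulin were grouped by role, each gene read by its brightest tested probe set. Newly made tubulin is folded by the CCT and prefoldin chaperones and then joined into heterodimers by the cofactors TBCA to TBCE with the GTPase ARL2. Of 19 measured folding genes, 3 fell and 1 rose, 21.1% of the list against 5.52% of all 12529 genes. TBCB, the alpha-tubulin cofactor B, read 793.6, 753.0 and 771.9 in the BAHD1 siRNA arrays and 1002.7, 1016.7 and 944.4 in the control arrays, and fell by 0.35 on the log2 scale (SE 0.07, adjusted p = 0.0144). All 3 TBCB arrays with BAHD1 siRNA lay below all 3 controls, and its 2 other probe sets were at -0.29 and -0.18. ARL2 fell by 0.33 and TBCEL, a relative of cofactor E known to destabilise tubulin, by 0.50 (adjusted p = 0.0291 and 0.0437). TBCE, cofactor E itself, rose by 0.34 (SE 0.07, adjusted p = 0.0263), with 0.06 on its other probe set, but had 0.20 with array medians set equal (adjusted p = 0.286). The CCT subunit genes did not pass, and CCT8 at 0.16 was the 1 measured CCT gene above 0. The list's median was -0.12, against 0.02 over the 12529 genes. Most of the measured CCT genes were bright, however, and bright signals were mostly lower over the whole array. The median over all tested probe sets with a mean log2 signal of at least 11 was -0.08. After quantile normalisation CCT8 had 0.21 and the other measured CCT genes ran from -0.14 to -0.02. The part of brightness in the list's median was not tested.

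Of 15 measured tubulin-modifying enzymes, 1 rose and 1 fell, 13.3% of the list against 5.52% of all genes. VASH2, which with its partner SVBP removes the last tyrosine of alpha-tubulin, read 126.3, 144.1 and 159.7 in the BAHD1 siRNA arrays and 66.8, 65.3 and 85.0 in the control arrays. Every BAHD1 siRNA array lay well above every control. VASH2 rose by 0.98 with an SE of 0.14 (adjusted p = 0.00601), and it passed in all 6 fits that left out an array but not with 1 variance prior (adjusted p = 0.118). Its other probe set was at 0.03. HDAC6, the tubulin deacetylase, fell by 0.35 (SE 0.09, adjusted p = 0.0419), with -0.57 on its other probe set. No other gene of the 15 measured passed on its brightest probe set, among them VASH1 (0.08), SVBP (0.02) and the tubulin tyrosine ligase gene TTL (-0.14). TTL had 2 further probe sets, at -0.41, which passed the threshold, and at 0.76, which did not.

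For the decay of tubulin mRNA, 1 of 12 measured genes fell and none rose, 8.33% of the list and near the 5.52% of all genes. CNOT6, a deadenylase of the CCR4-NOT complex that carries out this decay, read 398.2, 408.7 and 405.5 in the BAHD1 siRNA arrays and 527.0, 550.7 and 517.0 in the control arrays, and fell by 0.39 (SE 0.07, adjusted p = 0.0131). Its other probe set was at -0.50. TTC5, which recognises the start of a nascent tubulin chain, had -0.40 with an SE of 0.20 (adjusted p = 0.277) and 0.33 on its other probe set. SCAPER, the adaptor that links TTC5 to the deadenylases, had 0.13 (adjusted p = 0.576).

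Among the other tubulins, TUBE1, which encodes the centriolar epsilon-tubulin, rose by 0.60 (SE 0.15, adjusted p = 0.0455), with 512.5, 603.8 and 767.5 in the BAHD1 siRNA arrays and 359.9, 373.3 and 502.8 in the control arrays. The groups did not overlap, and the highest control lay just below the lowest BAHD1 siRNA value. TUBE1 lost the threshold after quantile normalisation (adjusted p = 0.0501) and with array medians set equal (adjusted p = 0.0605). The gamma-tubulin genes TUBG1 and TUBG2 had 0.00 and 0.04, the delta-tubulin gene TUBD1 -0.12 and TUBA4A 0.32 (adjusted p = 0.213). The other 7 genes of that list, of 12, had no tested probe set of their own. In the microtubule nucleation list, MZT1, a small subunit of the gamma-tubulin ring complex, fell by 0.36 (SE 0.07, adjusted p = 0.017), with no pass among the remaining 7 of that list's 8 measured genes. None of the 26 measured genes for microtubule-associated and dynamics proteins passed, and the lowest adjusted p was 0.0531, for the tubulin-sequestering gene STMN1 at 0.28. Of the 9 related genes that passed, 8 lost the threshold in at least 3 of the 6 fits that left out an array, the exception being VASH2, and all 9 lost it with 1 variance prior.

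**Figure D4:**
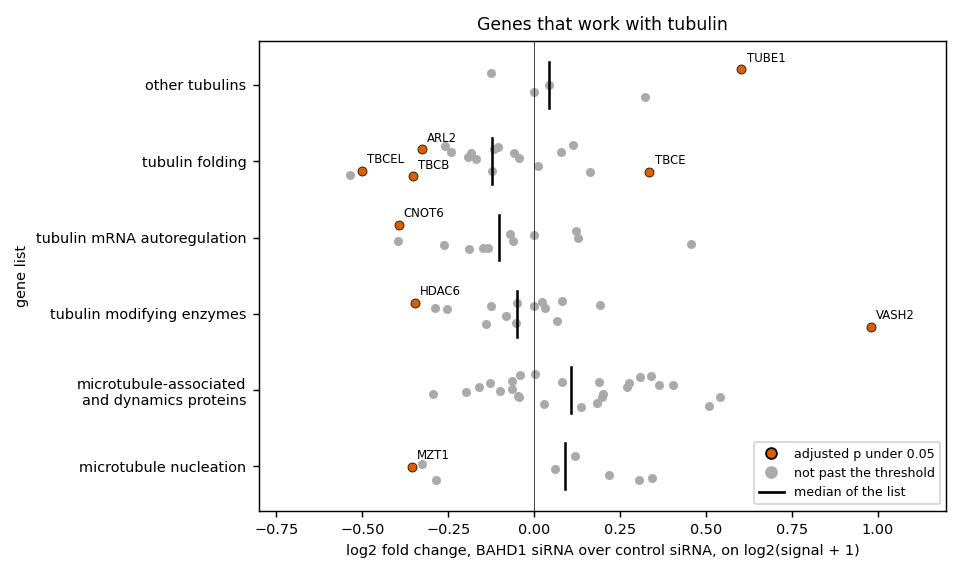
Log2 fold change of BAHD1 siRNA over control siRNA for each measured gene of 6 lists of genes that work with tubulin, 1 point per gene, with black bars for list medians and filled labelled points for genes past the threshold. VASH2 lies farthest to the right at 0.98, and 3 of the 4 folding genes past the threshold lie to the left of 0.

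The arrays carry a few facts that bear on these values. Median signals ran from 17.4 to 19.5 in BAHD1 siRNA arrays and from 15.8 to 17.9 in control arrays. All 24 probe sets for poly-A RNAs that are added before labelling were higher in every BAHD1 siRNA array than in any control array, by a median of 1.49-fold, and their part in the tubulin differences was not tested. The 3′ to 5′ signal ratio of GAPDH was 0.956 to 0.966 in BAHD1 siRNA arrays and 0.926 to 0.955 in control arrays. The GAPDH ranges did not overlap, and the part of this in the tubulin differences was not tested. The same ratio of beta-actin was 1.49 to 1.67 in BAHD1 siRNA arrays and 1.47 to 1.54 in control arrays, and these ranges overlapped. The markers used for HEK293 (NEFL, NEFM, INA, VIM, KRT8, KRT18, PAX2 and CDH2) were all bright enough to be tested, with 2 higher (NEFL and NEFM) and 1 lower (VIM) past the threshold. Their summed signal was 5041.5 to 5324.4 in BAHD1 siRNA cells and 5356.3 to 5744.8 in control cells. VIM made up the largest part of that sum, with means of 2733.9 in BAHD1 siRNA cells and 3414.1 in control cells. The log2 fold changes of VIM and KRT18 were below 0, and those of NEFL, NEFM, INA, KRT8, PAX2 and CDH2 above 0. The lower sum is therefore no shared fall of these markers. Of 9 neuron markers 5 were tested (DCX, SYN1, ELAVL3 and ELAVL4 were too dim) and none passed, and their summed signal was 227.3 to 242.9 in BAHD1 siRNA cells and 178.2 to 258.2 in control cells. Of 3 blood and 3 liver markers, 1 each was tested, and neither passed. The summed blood signal was 30.5 to 56.4 in BAHD1 siRNA cells and 24.2 to 40.3 in control cells, and the summed liver signal 21.5 to 37.1 in BAHD1 siRNA cells and 21.3 to 41.1 in control cells.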

How the data were processed

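Total RNA of the 6 samples was labelled from oligo(dT) primers and hybridised to 1 array each, per the labels' protocols. The deposited values are linear intensities, 1 for every probe set of an array. Each array had a mean of 100 without its highest and lowest 2% of values. GCOS and GCRMA are named, per the submitters' processing notes, without roles, so the software behind the deposited intensities is unknown here.

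Control probe sets, 62 of 54675, were left out. A probe set was tested when its signal exceeded 17.9, the median of all signals, in 3 or more arrays, which kept 27458. BAHD1 siRNA was compared with control siRNA on log2(signal + 1) with limma 3.58.1 in R 4.3.3 (lmFit and eBayes with trend and robust), Benjamini-Hochberg adjustment over all tested probe sets and a threshold of 0.05. This prior was preferred because dim signals spread more, and with an earlier analysis known in which a single prior called none. The members, lists and tests were all chosen with earlier results of these data known. The fit was tested on simulated data.

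All members are described, with every related gene past the threshold, or the one with the smallest p where none passed. Some other related genes were named after their values were seen. Likeness to TUBB2B, the member with the smallest p, was taken over probe sets of 1 gene. Genes came from the platform annotation and promoters from RefSeq (GRCh38.p14). Any pair of arrays shared at most 1.08% of its values. The number of arrays limits the precision. Alternatives were a single prior, a replicate block, other filters, scalings and pseudocounts, array weights and leaving out each array.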

Additional observations from a re-analysis of the deposited data

Results flagged for a closer look

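A sixth TUBA1B probe set, too dim to be tested, read 6.5, 5.7 and 6.8 in the BAHD1 siRNA arrays and 3.9, 1.1 and 1.9 in the control arrays. Its mean was 6.33 in BAHD1 siRNA cells and 2.3 in control cells, so it lay above the control level in data the comparison did not use, while the 5 bright TUBA1B probe sets were lower. Signals this low have no stated background here.

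The poly-A RNAs added before labelling, also outside the comparison, had a mean log2 signal of 9.21 ± 0.17 in BAHD1 siRNA arrays and 8.63 ± 0.12 in control arrays (SD, n = 3 each). The hybridisation controls added after labelling had 9.84 ± 0.16 in BAHD1 siRNA arrays and 9.98 ± 0.18 in control arrays.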

How the results depend on the processing

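Over 279 recomputed fold changes of the 20 tubulin probe sets, 240 kept their direction and side of the threshold, 13 lost the threshold, 10 gained it and 16 changed sign. The 2 calls became 0 with 1 variance prior. They became 1 after quantile normalisation (TUBB4A lost) and with no filter on dim probe sets (TUBB4A lost). With array medians set equal 1 higher call remained (TUBB2B lost, and 2 lower calls gained). Without the _x_at and _s_at probe sets 1 remained, because the TUBB2B probe set carries such a suffix. Leaving out 1 array gave 0 to 2 higher and 0 to 7 lower calls. The 7 came without control replicate 3, where 558 of all tested probe sets were called lower. Over all probe sets the 1221 calls became 0 with 1 variance prior, 398 with no filter, 2365 at a threshold of 0.1 and 177 to 1174 with 1 array left out (186, 177, 295 and 279 without BAHD1 siRNA replicate 2 or 3 or control replicate 1 or 2). The split of 596 higher and 625 lower calls became 192 and 1515 with array medians set equal. Sign changes were confined to TUBB3, TUBB4B, TUBB6 and TUBA1A, none of them called. TUBB3 turned to 0.0082 with array weights and 0.0229 after quantile normalisation on its second probe set, and its pair ran from -0.2061 to 0.0502 and from -0.0777 to 0.0778 with 1 array left out. TUBB4B turned to 0.001 with array weights and 0.0421 after quantile normalisation on its first probe set and to -0.0719 with array medians set equal on its second, and the pair ran from -0.0733 to 0.0355 and from -0.0097 to 0.1061 with 1 array left out. TUBB6 and TUBA1A turned to -0.0598 and -0.0529 with array medians set equal. The cause was not tested.

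The labels do not say whether samples with equal replicate numbers were paired. The correlations of deviations from the group means were 0.010, 0.010 and 0.024 for equal numbers and -0.028 to 0.017 for unequal ones. Such small values cannot show whether the samples were paired. With the replicate block 1629 probe sets were called, against 1221 without it, among them the 2 tubulin probe sets, and no tubulin call changed. Each gene's brightest probe set gave values within 1 SD of the mean over its probe sets.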
